A study of Mus musculus with 6 samples.

Results

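Integrins and laminins are the receptors and the ligands that tie cells to the extracellular matrix. The genes described here are all those of the deposited table whose mouse symbol is an integrin alpha subunit, an integrin beta subunit or a laminin chain. They number 37 of 55487 genes: 18 alpha subunits, 8 beta subunits and 11 laminin chains. They were set out by where each is mainly made, as known from mouse tissues in general: 8 epithelial, 8 mesenchymal, 9 of blood cells and 12 of broad or mixed source.

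An integrin is a dimer of an alpha and a beta subunit that spans the plasma membrane. A laminin is a trimer of an alpha, a beta and a gamma chain that assembles into the sheet of the basement membrane under epithelium, around muscle and around vessels. In the small intestine the epithelium holds on to this sheet with the dimer of Itga6 and Itgb4, the core of the hemidesmosome, and with the dimer of Itga3 and Itgb1, while fibroblasts and muscle below it secrete much of the laminin.

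The libraries hold RNA of terminal ileum from C57BL/6 mice at postnatal day 9: 3 carry the label NEC and 3 the label control. The first is short for necrotizing enterocolitis, inflammation and death of bowel tissue in preterm infants. Its induction in the pups combined hyperosmolar formula by gavage with 4 days of hypoxia, given 3 times daily as 10 min of 5% O2, and with lipopolysaccharide by mouth, 4 mg/kg daily, at postnatal days 6 and 7. Control labels carry this treatment text too, which leaves their feeding and handling unstated, and the labels do not say that each library is a separate animal. The p-values therefore measure the spread between these libraries, which may be technical.

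Values are FPKM, fragments per kilobase of transcript scaled to the mapped total of the library, so levels of different genes can be set beside each other. A change is the difference of group means of log2(FPKM + 1), NEC minus control, tested with limma across all genes averaging 1 FPKM or more over the 6 libraries, and a call is a Benjamini-Hochberg adjusted p under 0.05. Depth, estimated from the smallest steps of the values, was 15.2 to 18.7 M fragments per library, so that 1 fragment in a transcript of 1 kb was worth 0.0536 to 0.0657 FPKM. Across the 15806 tested genes the changes had a median of -0.26 as deposited, -0.21 when scaled to protein-coding genes, and 0 after TMM scaling or quantile normalization. Each change below is to be read against that -0.26. NEC 1 stood apart from the other NEC libraries: its log2 values correlated with NEC 2 and NEC 3 at 0.942 and 0.932 across genes, against 0.972 between those, and Rn7s1, an RNA of the signal recognition particle, held 42.7% of its total FPKM and 27.3% to 32.2% of the other totals.

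The label terminal ileum was set against regional genes. Of 5 ileal genes 2 were lower in NEC and 3 did not pass. Of 5 genes of the upper small intestine 4 were tested, of which 3 were higher and 1 lower. Of all tested genes 30.6% were lower and 7.69% higher. Cubn, an endocytic receptor of suckling ileum, was at 96.1 to 160.0 FPKM in NEC and 131 to 139 FPKM in control. Cubn and Slc10a2, an ileal gene of bile acid uptake, overlapped between groups. Fabp6, another such gene, overlapped through NEC 3, at 0.123, 0.0 and 10.4 FPKM in NEC 1, 2 and 3 against 1.2 to 2.45 FPKM in control. Without NEC 3 it was called lower (log2 -1.28, adjusted p = 0.0131, limma), and 3 of the 5 ileal genes were lower, beside 33.8% of all genes. Fgf15, the ileal hormone of bile acid feedback, was at 0.452, 0.0821 and 1.35 FPKM in NEC 1, 2 and 3, against 5.55 to 5.97 FPKM in control. Gata4, a transcription factor of the upper small intestine, was at 7.96, 7.28 and 3.74 FPKM in NEC, against 0.0622 to 0.184 FPKM in control. Fabp1 was at 194, 145 and 70.6 FPKM in NEC, against 0.232 to 0.781 FPKM in control, and Apoa4 at 8170 to 10300 against 1680 to 2180 FPKM. Cybrd1, a duodenal iron reductase, was at 2.92 to 3.61 FPKM in NEC, against 3.99 to 5.3 FPKM in control. The Cybrd1 call was lost in several alternatives, TMM scaling and quantile normalization among them. Whether the position of the sampled bowel has a part in the results below was not tested.

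Promoter windows of 300 bases, 250 before and 50 after the RefSeq start site on build GRCm38.p6, were at hand for 23 of the 37 genes. Those of 4 are shown because the genes moved in both directions in the data below: Itga3 rose, whereas Itga2, Lamb1 and Itga8 fell. The windows are chr11:95076665-95076964 (minus strand) for Itga3, chr13:114932051-114932350 (minus strand) for Itga2, chr12:31265043-31265342 (plus strand) for Lamb1 and chr2:12301895-12302194 (minus strand) for Itga8. Capitals mark matches on either strand to GGGCGG, the GC box, to CAGGTG, an E-box, to TGACTCA or its complement TGAGTCA, the motif of AP-1, and to AGATAA, the motif of GATA factors.
Itga3: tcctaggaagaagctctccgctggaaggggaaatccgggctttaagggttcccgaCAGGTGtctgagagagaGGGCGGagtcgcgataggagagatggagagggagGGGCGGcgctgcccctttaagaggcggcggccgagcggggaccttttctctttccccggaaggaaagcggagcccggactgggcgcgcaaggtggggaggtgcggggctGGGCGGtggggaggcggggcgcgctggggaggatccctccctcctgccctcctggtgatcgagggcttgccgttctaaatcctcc
Itga2: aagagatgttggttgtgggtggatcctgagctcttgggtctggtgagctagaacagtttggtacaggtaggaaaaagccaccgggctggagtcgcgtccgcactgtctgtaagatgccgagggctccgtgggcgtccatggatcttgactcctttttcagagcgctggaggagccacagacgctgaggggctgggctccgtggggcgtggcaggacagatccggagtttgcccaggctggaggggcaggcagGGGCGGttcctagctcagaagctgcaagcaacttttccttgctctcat
Lamb1: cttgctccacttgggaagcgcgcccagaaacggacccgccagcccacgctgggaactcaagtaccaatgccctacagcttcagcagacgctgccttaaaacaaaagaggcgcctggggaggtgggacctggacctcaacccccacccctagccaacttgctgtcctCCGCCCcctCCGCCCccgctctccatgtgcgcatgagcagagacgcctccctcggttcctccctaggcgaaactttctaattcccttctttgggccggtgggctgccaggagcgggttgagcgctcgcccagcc
Itga8: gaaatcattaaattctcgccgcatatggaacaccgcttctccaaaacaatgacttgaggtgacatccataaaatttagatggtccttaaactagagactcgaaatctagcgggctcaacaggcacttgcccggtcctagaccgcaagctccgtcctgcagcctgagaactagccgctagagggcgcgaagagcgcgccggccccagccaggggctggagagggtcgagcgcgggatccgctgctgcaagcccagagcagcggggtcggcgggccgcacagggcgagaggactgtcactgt
The Itga3 window held 3 GC boxes and 1 E-box, the Itga2 window 1 GC box, the Lamb1 window 2 GC boxes, and the Itga8 window no match to these letters. Of all 32851 mouse windows, 35.7% held the GC box, 20.2% the E-box, 5.2% the AP-1 motif and 11.2% the GATA motif. Of the 26 windows of the integrin and laminin genes, 12 held the GC box, 8 the E-box, 2 the AP-1 motif and 1 the GATA motif. These matches describe letters and not binding.

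Most of the tested integrin and laminin genes were lower in NEC, and 3 were higher. Of the 29 that averaged 1 FPKM or more, 17 fell, 3 rose and 9 did not pass. The calls were 69.0% of the tested members, beside 38.2% of all tested genes (limma). By direction, 58.6% of the tested members fell beside 30.6% of all tested genes, and 10.3% rose beside 7.69% of all tested genes. In 25 of the 29, or 86.2%, the NEC and control values had no overlap, against 59.1% of all tested genes. Without NEC 1, 19 of 31 fell and 3 rose, beside 33.5% and 9.77% of all genes. After TMM scaling 9 fell and 4 rose, beside 14.2% and 16.7% of all genes, so falls outnumbered rises among members on both scales. Without control 1, 2 or 3, 5, 4 and 9 of 29 fell, beside 6.73%, 5.9% and 12.7% of all genes. The calls of Itga3, Itgb4, Lama3, Lamb1 and Lamc3 held, in direction too, in each alternative setting that tested these genes.

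**Figure D1:**
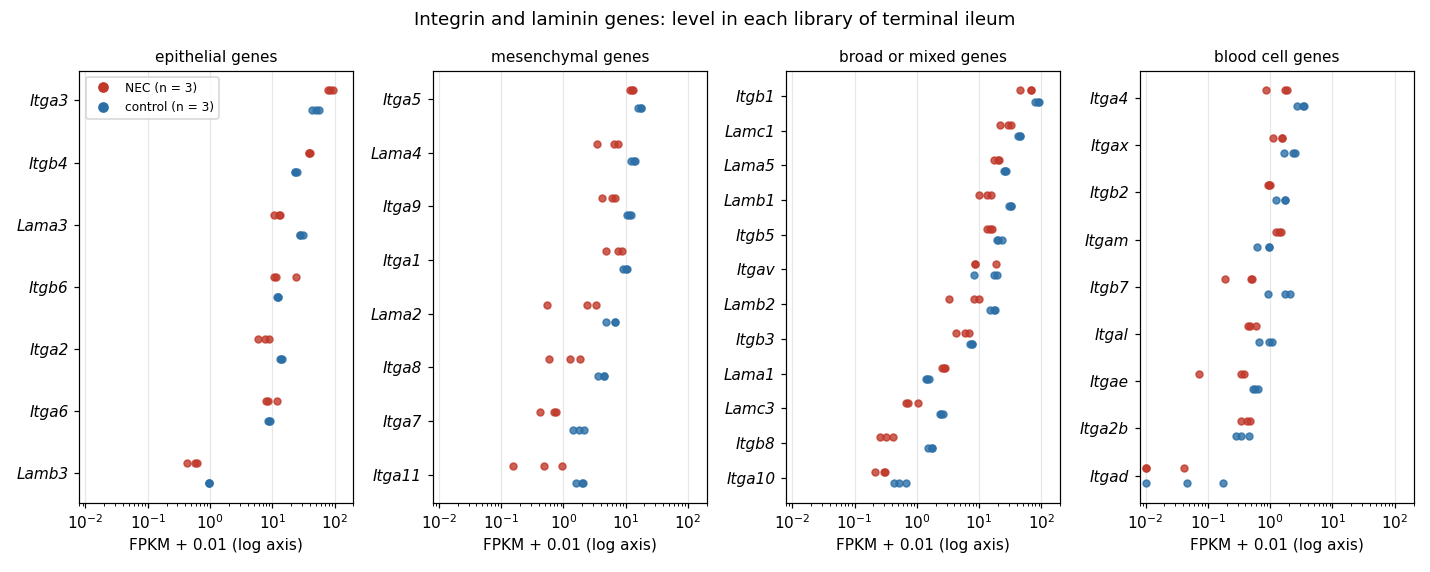
FPKM of 36 of the 37 genes in each library, on a log axis with 0.01 added, in panels by main source; each point is 1 library, red for NEC and blue for control. Itga3 and Itgb4 lie higher in NEC, Lama3 and Itga2 lower. The 8 mesenchymal genes lie lower in NEC without overlap, as do 47.3% of all tested genes.

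The epithelial genes split. Of 8, 7 were tested: 2 rose, 2 fell and 3 did not pass. Of all tested genes 7.69% rose and 30.6% fell, so the count of epithelial genes that fell was near that share. Their median log2 change was 0.15, or -0.09 without NEC 1, beside -0.26 for all tested genes. The 2 that rose, Itga3 and Itgb4, are receptors of laminin, and the 2 that fell are a laminin chain, Lama3, and a receptor of collagen, Itga2.

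Itgb4, the beta subunit of the hemidesmosome (chromosome 11, 115974709 to 116008412, mm10), was at 39.3, 40.7 and 39.2 FPKM in NEC 1, 2 and 3, and at 23.0, 23.3 and 25.3 FPKM in control 1, 2 and 3. All NEC libraries were above all controls and nearly level with each other. The log2 change was 0.71 (SE 0.08, adjusted p = 0.00461, limma), 0.97 above the median of all genes, and 1.05 after TMM scaling.

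Itga6, the only alpha partner of Itgb4 (chromosome 2, 71745616 to 71858416), was at 11.8, 8.54 and 7.97 FPKM in NEC and at 8.80, 9.15 and 8.57 FPKM in control. The groups overlapped, with NEC 1 highest and NEC 2 and NEC 3 below the controls. Its log2 change of 0.07 (SE 0.15, adjusted p = 0.733, limma) did not pass, and the change was 0.38 after TMM scaling and -0.09 without NEC 1. The ratio of Itgb4 to Itga6 within a library, which no scaling of the library can alter, was 3.33, 4.77 and 4.92 in NEC against 2.62, 2.55 and 2.96 in control. The ratio was thus higher in every NEC library than in any control library.

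Itga3, the alpha subunit that pairs with Itgb1 to bind epithelial laminins (chromosome 11, 95044474 to 95076801), was at 93.5, 84.0 and 77.3 FPKM in NEC against 43.2, 50.8 and 55.6 FPKM in control. The groups did not overlap, and the log2 change was 0.76 (SE 0.13, adjusted p = 0.00958, limma) and 1.10 after TMM scaling. Itga3 had the highest level of the 18 alpha subunits in every library. Its share of the summed FPKM of the alpha subunits was 57.8% ± 5.43 in the NEC libraries and 35.1% ± 3.79 in the controls (SD, n = 3 each).

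Itgb1, the beta partner of most alpha subunits, was at 45.3, 68.9 and 69.2 FPKM in NEC and 93.2, 87.8 and 79.7 FPKM in control. All NEC libraries were lower, NEC 1 most. The log2 change of -0.52 (SE 0.18, adjusted p = 0.0582, limma) did not pass, and it was -0.18 after TMM scaling. It passed without NEC 1 (-0.32, adjusted p = 0.0285) and without NEC 3 (-0.62, adjusted p = 0.047). Of the summed FPKM of the beta subunits, Itgb1 held 43.8% ± 7.31 in NEC and 55.6% ± 1.46 in control, and Itgb4 held 28.7% ± 1.80 in NEC and 15.4% ± 1.62 in control. Itga3 stood at 2.06, 1.22 and 1.12 times the FPKM of Itgb1 in the NEC libraries, and at 0.463, 0.578 and 0.698 times in the controls.

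Itga2, the collagen-binding alpha subunit of epithelium and platelets (chromosome 13, 114833081 to 114932100), went the other way. It was at 8.67, 5.98 and 7.61 FPKM in NEC against 13.9, 14.1 and 13.1 FPKM in control, with no overlap. The log2 change was -0.82 (SE 0.13, adjusted p = 0.00922, limma), and the call was lost after TMM scaling at -0.50 (adjusted p = 0.0683).

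Itgb6, the epithelial beta subunit that with Itgav activates latent TGF-beta, was at 24.4, 10.7 and 11.5 FPKM in NEC against 12.3, 12.2 and 11.8 FPKM in control. NEC 1 alone was above the controls. The log2 change of 0.24 did not pass (adjusted p = 0.532, limma) and was -0.12 without NEC 1.

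Lama3 and Lamb3 encode chains of the epithelial laminin of skin and gut. Lama3 (chromosome 18, 12333819 to 12583013) was at 13.1, 10.7 and 12.7 FPKM in NEC against 27.4, 31.2 and 28.1 FPKM in control, far from overlapping. Its log2 change of -1.18 (SE 0.11, adjusted p = 0.00224, limma) had the smallest p of the tested members, and it was -0.86 after TMM scaling. Lamb3 was at 0.564, 0.409 and 0.604 FPKM in NEC against 0.936, 0.969 and 0.941 FPKM in control, too low for the test, and fell by 0.35 on the log2 scale when no filter was set (adjusted p = 0.0465, limma, in a fit where 15.3% of all genes fell). Hsd11b1 and other genes overlap Lamb3, and the strand setting of the counting is not given in the sources used here, so its reads may be shared. Itgb4 stood at 2.99, 3.80 and 3.08 times the FPKM of Lama3 in NEC against 0.840, 0.747 and 0.900 times in control.

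The level of epithelial RNA itself was followed by 12 epithelial markers. Of these 2 were higher, 1 lower and 9 did not pass, beside 7.69% of all tested genes that rose and 30.6% that fell. The summed level of the markers was 1580 to 2040 FPKM in NEC and 1440 to 1550 FPKM in control, and none was at 0. Epcam, the epithelial adhesion molecule, did not pass, at 247, 206 and 240.0 FPKM in NEC and at 247, 251 and 251 FPKM in control. Vil1 was higher, at 278, 288 and 274 FPKM in NEC against 156, 167 and 175 FPKM in control. Krt20 was higher too, at 185, 88.4 and 37.7 against 11.9, 12.9 and 11.8 FPKM. Krt19 was lower, at 37.1, 44.8 and 67.6 FPKM in NEC against 129, 117 and 143 FPKM in control. Per 1000 FPKM of these markers, Itgb4 had 19.3, 25.0 and 24.9 FPKM in NEC against 15.9 to 16.3 FPKM in control, and Itga3 had 46.0 to 51.6 against 29.9 to 35.8 FPKM. On the same footing Lama3 had 6.46 to 8.06 FPKM in NEC against 18.1 to 21.3 FPKM in control, and Itga2 3.68 to 4.83 against 8.46 to 9.66 FPKM. These 4 genes kept their direction and did not overlap per summed marker FPKM, whereas Itga6 and Itgb6 overlapped. The markers in the sum moved in both directions, so this footing depends on the markers chosen. Mean FPKM in NEC over control was 1.66 for Itgb4 and 1.7 for Itga3. It was 1.68 for Vil1 and 8.49 for Krt20, against 0.927 for Epcam and 0.384 for Krt19. Itgb4 and Itga3 thus rose about as much as Vil1 did.

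**Figure D2:**
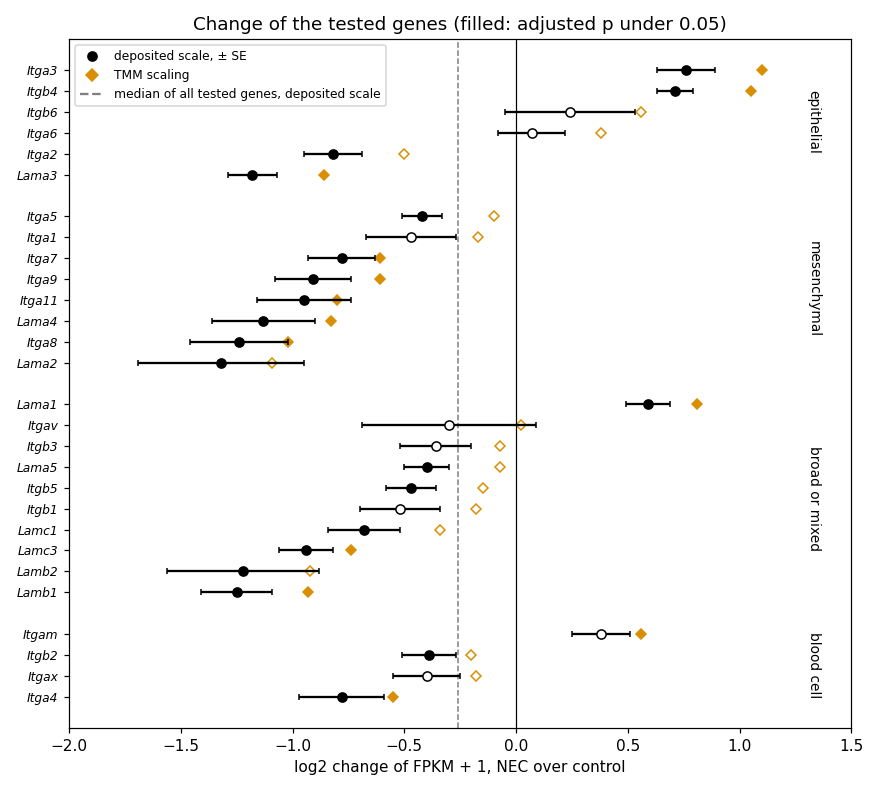
Log2 change of FPKM + 1 (NEC over control) of 28 of the 29 tested genes by main source: black circles with SE on the deposited scale, orange diamonds after TMM scaling, filled where the adjusted p is under 0.05. The dashed line is the median of all tested genes, -0.26; Itga3, Itgb4 and Lama1 lie right of 0 and filled on both scales.

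The mesenchymal genes were lower throughout. All 8 were tested. Of these 7 fell, beside 30.6% of all tested genes, Itga1 did not pass, and none rose (0 also at an unadjusted p under 0.05, limma). Their median log2 change was -0.93, beside -0.26 for all tested genes. After TMM scaling 5 fell, beside 14.2% of all tested genes. Without control 1, 2 or 3, 1, 0 and 5 passed, beside 6.73%, 5.9% and 12.7% of all genes that fell. Without control 2, 7 were lower at an unadjusted p under 0.05 (limma). The calls of Itga7, Itga9, Itga11 and Lama4 were lost without control 1 and without control 2, and that of Itga8 without control 2.

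Lama4, the laminin alpha chain of vessels and muscle (chromosome 10, 38965515 to 39110188), was at 3.47, 6.37 and 7.43 FPKM in NEC against 14.0, 13.7 and 12.3 FPKM in control (log2 -1.13, SE 0.23, adjusted p = 0.0151, limma). Lama2, the chain of muscle basement membranes (chromosome 10, 26980036 to 27619758), was at 0.539, 2.37 and 3.31 FPKM in NEC against 6.72, 6.81 and 4.82 FPKM in control. Both were lowest in NEC 1 and did not overlap between groups. The Lama2 change of -1.32 (SE 0.37, adjusted p = 0.0332) was -0.89 without NEC 1, and its call was lost after TMM scaling (-1.09, adjusted p = 0.0620), after quantile normalization, at a pseudocount of 0.1, without a filter, without NEC 2 and without any 1 control.

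Itga8, the nephronectin receptor of mesenchyme and smooth muscle (chromosome 2, 12106632 to 12301922), was at 0.576, 1.28 and 1.81 FPKM in NEC against 4.4, 4.41 and 3.56 FPKM in control (log2 -1.24, SE 0.22, adjusted p = 0.0106, limma). Itga9, which binds tenascin-C, was at 4.09, 6.11 and 6.71 FPKM in NEC against 11.1, 12.2 and 10.6 FPKM in control (log2 -0.91, adjusted p = 0.0119). Neither overlapped between groups. Their ligands were lower as well or did not pass: Tnc, the gene of tenascin-C, fell by 0.81 on the log2 scale (adjusted p = 0.0215, lost without any 1 control), and Npnt, the gene of nephronectin, changed by -0.61 without passing (adjusted p = 0.0624).

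Itga5, the fibronectin receptor subunit, was at 13.1, 11.7 and 12.5 FPKM in NEC against 15.8, 17.7 and 17.3 FPKM in control. It fell by 0.42 (SE 0.09, adjusted p = 0.0175, limma), a difference that was -0.10 after TMM scaling (adjusted p = 0.561), and its call was also lost with the replicate number as a block (adjusted p = 0.0554), without NEC 2 and without any 1 control. Fn1, the fibronectin gene, had a log2 change of -0.61 (adjusted p = 0.152). Itga11, a collagen receptor of fibroblasts, was at 0.521 ± 0.405 FPKM in NEC and 1.87 ± 0.264 FPKM in control, and Itga7, the laminin receptor of muscle, at 0.615 ± 0.184 FPKM in NEC, against 1.78 ± 0.357 FPKM in control (SD, n = 3 per group). They fell by 0.95 and 0.78 on the log2 scale. Itga1, a collagen receptor of smooth muscle and vessels, was at 4.8, 7.39 and 8.81 FPKM in NEC against 9.99, 10.5 and 9.06 FPKM in control (log2 -0.47, adjusted p = 0.0982), and passed without NEC 3 (-0.63, adjusted p = 0.0369). Pelo lies within the span of Itga1, and how their reads were divided is not stated.

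Fibroblast markers were lower along with these genes. Of 10 fibroblast markers 9 were lower, beside 30.6% of all tested genes, and 1 did not pass. Their summed level was 123, 307 and 367 FPKM in NEC 1, 2 and 3 against 675 to 836 FPKM in control. Without control 1, 2 or 3, 1, 1 and 2 of the fibroblast markers were lower, beside 6.73%, 5.9% and 12.7% of all genes. Of 10 smooth muscle markers 1 was lower, again beside 30.6%, and 9 did not pass. Without NEC 1, 6 of the smooth muscle markers were lower, beside 33.5% of all genes. Their sum was 150, 704 and 700 FPKM in NEC 1, 2 and 3 against 800 to 945 FPKM in control. None of these markers was at 0 in all libraries. In RNA of whole tissue, fewer cells of a type and less RNA per cell cannot be told apart. The median log2 change was -1.65 for the fibroblast markers and -0.90 for the smooth muscle markers.

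Per 1000 FPKM of fibroblast markers, Itga1 was at 38.9, 24.1 and 24.0 FPKM in NEC against 12.3 to 13.4 FPKM in control, and Itga5 at 106, 38.1 and 34.0 against 19.6 to 25.6 FPKM. Itga9 and Lama4 were also higher on this footing without overlap, at 18.3 to 33.2 against 13.7 to 15.6 FPKM and at 20.2 to 28.2 against 16.4 to 18.2 FPKM. Lama2, Itga7 and Itga11 overlapped, and Itga8 was lower, at 4.18 to 4.94 FPKM in NEC against 5.28 to 5.43 FPKM in control. The mesenchymal genes thus differed among themselves once set against the summed fibroblast markers. The largest markers of that sum were the collagen genes Col1a1 and Col3a1, with mean FPKM in NEC over control of 0.378 and 0.316. The same ratio was 0.655 for Pdgfra and 0.668 for Pdgfrb. It was 0.5 for Itga9 and 0.433 for Lama4, lower than for these receptors, and 0.711 for Itga1 and 0.733 for Itga5, higher. The direction for Itga9 and Lama4 thus depends on the markers chosen. Several of the mesenchymal genes are also of vessels or muscle, and ratios to markers of those cells were not taken. Of 10 endothelial markers 5 were lower, beside 30.6% of all tested genes, and 5 did not pass. The sum of these endothelial markers was 42.8 to 56.6 FPKM in NEC and 68.3 to 75.7 FPKM in control. The part of cell makeup in the falls of the mesenchymal genes was not tested.

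**Figure D3:**
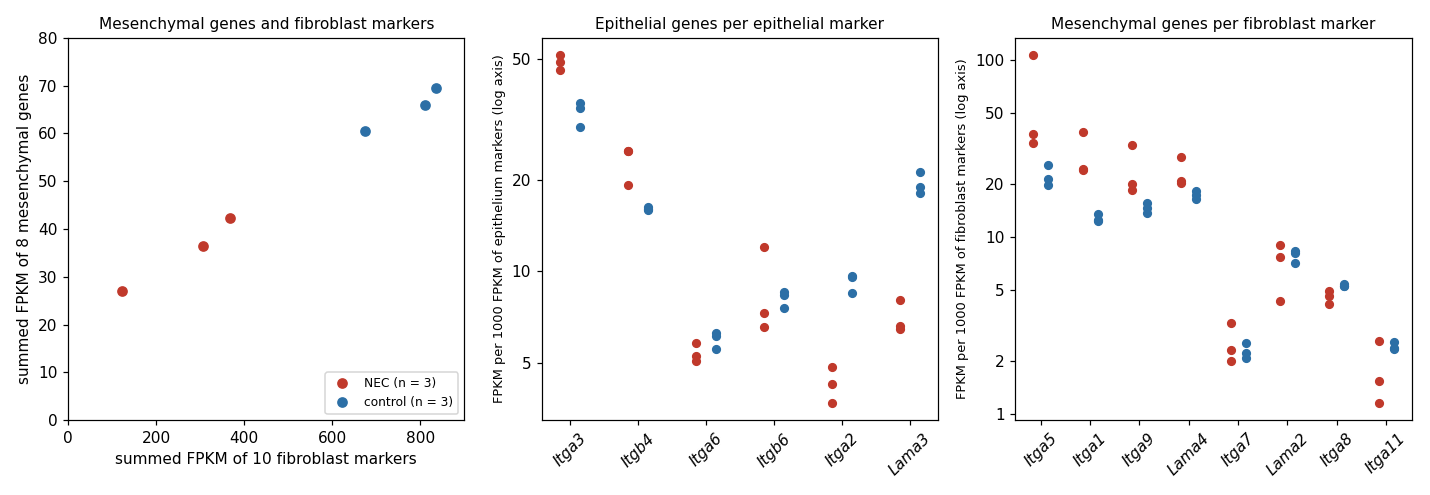
Left, summed FPKM of the 8 mesenchymal genes against that of 10 fibroblast markers in each library; middle and right, FPKM of epithelial and mesenchymal genes per 1000 FPKM of epithelial or fibroblast markers (log axes), with NEC in red and control in blue. Itga3 and Itgb4 are higher and Lama3 and Itga2 lower per summed epithelial markers, and Itga5, Itga1, Itga9 and Lama4 are higher per summed fibroblast markers.

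Set against each other within a library, the summed FPKM of the 8 epithelial genes was 7.35, 4.57 and 3.83 times that of the 8 mesenchymal genes in NEC 1, 2 and 3, and 2.04, 2.12 and 2.45 times in control 1, 2 and 3. The ratio was higher in each NEC library than in each control library, and highest in NEC 1. The epithelial sum was 162 to 199 FPKM in NEC and 135 to 148 FPKM in control, with Itga3 its largest member in every library, and the mesenchymal sum was 27.1 to 42.3 FPKM in NEC and 60.5 to 69.4 FPKM in control. The ratio of epithelial to fibroblast markers, which hold none of these genes, was 16.5, 5.30 and 4.29 in NEC and 1.78, 1.75 and 2.30 in control.

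Of the 3 kinds, laminin chains had the lowest median change, beside -0.47 for integrin alpha and -0.38 for integrin beta subunits. Of 10 tested, 8 fell, 1 rose and 1 did not pass, with a median log2 change of -1.03. Of all tested genes 30.6% fell and 7.69% rose. After TMM scaling 4 fell, beside 14.2% of all genes. Without control 1, 2 or 3, 3, 3 and 4 fell, beside 6.73%, 5.9% and 12.7% of all genes. The summed FPKM of the 11 chains was 81.0, 99.8 and 112 in NEC against 180.0, 186 and 167 in control, with no overlap. The alpha subunits of integrins summed to 141 to 150 FPKM in NEC and 140 to 145 FPKM in control, with Itga3 higher and 7 others lower.

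Lamb1, the most abundant beta chain (chromosome 12, 31265234 to 31329644), was at 9.88, 13.4 and 15.6 FPKM in NEC against 33.1, 32.6 and 29.7 FPKM in control (log2 -1.25, SE 0.16, adjusted p = 0.00549, limma, and -0.93 after TMM scaling). Lamb2, the beta chain of vessels and muscle, was at 3.32, 8.39 and 10.1 FPKM in NEC against 17.4, 18.3 and 15.1 FPKM in control (log2 -1.22, SE 0.34, adjusted p = 0.0312). The groups did not overlap for either. The Lamb2 call was lost after TMM scaling (-0.92, adjusted p = 0.0565), without a filter, without NEC 2 and without any 1 control. Their shares overlapped between groups: Lamb1 held 63.8% ± 6.89 of the beta chain FPKM in NEC and 64.0% ± 1.07 in control.

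Lamc1, the gamma chain of most laminins (chromosome 1, 153218922 to 153332786), was at 21.6, 28.9 and 33.1 FPKM in NEC against 45.8, 46.1 and 41.5 FPKM in control (log2 -0.68, SE 0.16, adjusted p = 0.0210, limma). Its call was lost after TMM scaling (-0.34, adjusted p = 0.0505) and without any 1 control. Lamc3, a gamma chain of low level, was at 0.721, 0.664 and 1.04 FPKM in NEC against 2.60, 2.31 and 2.43 FPKM in control (log2 -0.94, SE 0.12, adjusted p = 0.00569). No NEC value of either chain reached the lowest control.

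Lama5, the main laminin alpha chain of mature epithelial basement membranes (chromosome 2, 180176373 to 180225859), was at 17.5, 20.5 and 20.4 FPKM in NEC against 25.2, 26.8 and 25.7 FPKM in control. The groups did not overlap, but the change of -0.40 (SE 0.10, adjusted p = 0.0223, limma) became -0.07 after TMM scaling (adjusted p = 0.485), and the call was also lost with the replicate block (adjusted p = 0.0527) and without any 1 control. Among the laminin alpha chains, Lama5 held 46.2% ± 2.19 of the alpha chain FPKM in NEC and 34.2% ± 1.13 in control, while Lama3 held 29.2% ± 5.44 in NEC against 38.2% ± 1.3 in control (SD, n = 3 per group).

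Lama1 was the laminin chain that rose. It is the alpha chain of embryonic basement membranes (chromosome 17, 67697259 to 67822647). It was at 2.53, 2.83 and 2.76 FPKM in NEC against 1.39, 1.58 and 1.44 FPKM in control, without overlap and with little spread in either group. The log2 change was 0.59 (SE 0.10, adjusted p = 0.00998, limma), 0.81 after TMM scaling, and the call was lost without control 1 (adjusted p = 0.0520). Its share of the alpha chain FPKM was 6.82%, 6.62% and 5.93% in NEC against 1.87%, 1.98% and 1.99% in control.

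**Figure D4:**
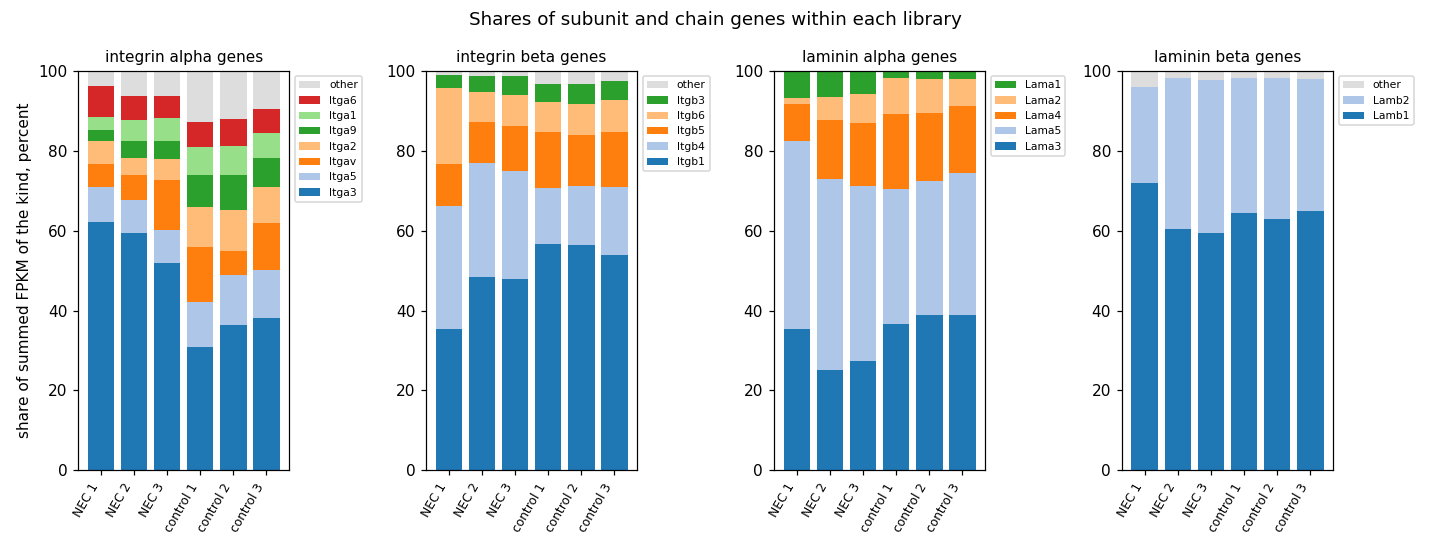
Share of each gene in the summed FPKM of its kind (integrin alpha and beta, laminin alpha and beta) in each library, NEC left of control; genes under 3% in both groups are pooled as other where present. Itga3, Itgb4, Lama5 and Lama1 take larger shares in every NEC library than in any control library.

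Of the remaining genes of broad source, Itgb5, a vitronectin receptor subunit, was at 13.5, 14.8 and 16.2 FPKM in NEC against 23.0, 19.7 and 20.1 FPKM in control. It fell by 0.47 (SE 0.11, adjusted p = 0.0190, limma), and the call was lost after TMM scaling (-0.15, adjusted p = 0.234), with the replicate block (adjusted p = 0.0534), without NEC 2 and without any 1 control. Itgb3, its relative of platelets and vessels, was at 5.70 ± 1.32 FPKM in NEC and 7.50 ± 0.285 FPKM in control and did not pass (adjusted p = 0.108). Itgav, a partner of both, had a log2 change of -0.30 (adjusted p = 0.561) and of 0.02 after TMM scaling. Itgb8, which with Itgav activates latent TGF-beta, had a mean under 1 FPKM and stayed out of the test. It was at 0.243, 0.311 and 0.401 FPKM in NEC against 1.73, 1.74 and 1.52 FPKM in control, and without a filter its log2 change was -1.02 (adjusted p = 0.00768). Itgb8 was thus below every control in every NEC library. Itga10, a collagen receptor of cartilage, was at 0.206 to 0.299 FPKM in NEC and 0.421 to 0.669 FPKM in control.

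Blood cell integrins were low in all libraries. Of 9, 4 passed the filter: Itga4 and Itgb2 fell, beside 30.6% of all tested genes, and Itgax and Itgam did not pass. Without control 1, 2 or 3 none of the 4 was called (limma), with 1, 1 and 3 lower and 1, 0 and 1 higher at an unadjusted p under 0.05. In the annotation Itga4 overlaps Cerkl, Itgam a read-through gene and Itgae Haspin, so reads of these may be shared. Itga4, which homes lymphocytes to gut with Itgb7, was at 0.837, 1.71 and 1.88 FPKM in NEC against 3.45, 3.36 and 2.70 FPKM in control (log2 -0.78, SE 0.19, adjusted p = 0.0239, limma). Its call was lost after quantile normalization and without any 1 control. Itgb7 was at 0.177, 0.510 and 0.482 FPKM in NEC against 2.04, 1.70 and 0.924 FPKM in control, and without a filter its log2 change was -0.86 (adjusted p = 0.0388). Madcam1, the vessel ligand of that dimer, fell by 0.63 (adjusted p = 0.0175), a call lost after TMM scaling and without NEC 2, control 1 or control 2.

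Itgb2 pairs with Itgam, Itgax, Itgal and Itgad, none of which was called. Itgam, the alpha subunit of macrophages and neutrophils, was at 1.39, 1.47 and 1.25 FPKM in NEC against 0.941, 0.611 and 0.942 FPKM in control, and did not overlap. Its log2 change of 0.38 (SE 0.13, adjusted p = 0.0533, limma) missed the threshold and passed after TMM scaling at 0.56 (adjusted p = 0.0229), after quantile normalization, after protein-coding scaling and without the mean-variance trend. Itgb2 was at 0.900, 0.969 and 0.931 FPKM in NEC against 1.72, 1.69 and 1.22 FPKM in control (log2 -0.39, adjusted p = 0.0468), a call that was lost in 12 of the 13 alternatives that tested it. The ratio of Itgam to Itgb2 was 1.55, 1.51 and 1.34 in NEC, above the 0.548, 0.361 and 0.773 of the controls. Itgax, of dendritic cells, changed by -0.40 (adjusted p = 0.0752). Itgal, Itgae, Itga2b and Itgad, of lymphocytes, intraepithelial lymphocytes, platelets and macrophages, had means under 1 FPKM, and without a filter none was called (adjusted p = 0.0989, 0.0971, 0.621 and 0.437). Itgal was at 0.426 to 0.578 FPKM in NEC and 0.641 to 1.06 FPKM in control, Itgae at 0.063 to 0.376 FPKM in NEC and 0.519 to 0.616 FPKM in control. Itga2b was at 0.324 to 0.468 FPKM in NEC and 0.274 to 0.442 FPKM in control, and Itgad, at most 0.166 FPKM, was listed at 0 in 3 of the 6 libraries. Of 12 leukocyte markers 3 of the 8 tested were lower, beside 30.6% of all tested genes. The sum of the 12 markers was 56.6 to 65.6 FPKM in NEC and 47.4 to 68.9 FPKM in control, which overlapped. S100a8, a neutrophil gene among them, was at 1.69 FPKM in control 1 and at 23.1 to 27.4 FPKM in the other libraries. Without it, a choice made after seeing the data, the sum was 33.4 to 38.2 FPKM in NEC and 38.7 to 45.7 FPKM in control, which did not overlap.

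Partner genes of the pathway were counted by role. Each count with all libraries on the deposited scale stands beside the 30.6% of all tested genes that fell and the 7.69% that rose. As with the members and among all genes, many calls of partners rest on all 3 controls. Without control 1, 2 and 3, 6.73%, 5.9% and 12.7% of all genes fell. The counts of partners lower in the same fits were 3, 2 and 3 for basement membrane partners and 1, 1 and 2 for other laminin receptors. They were 1, 0 and 1 for activators and inhibitors and 3, 1 and 2 for focal adhesion adaptors. They were 0, 0 and 1 for arginine-glycine-aspartate ligands, and 1, 0 and 2 for leukocyte integrin ligands. Where these counts are 0, the partners lower at an unadjusted p under 0.05 (limma) numbered 3 for activators and inhibitors without control 2, 5 and 5 for arginine-glycine-aspartate ligands without control 1 and control 2, and 3 for leukocyte integrin ligands without control 2. Plec, Col4a5, Fras1, Sdc4 and Tns3 kept their call in each alternative setting that tested them. Among hemidesmosome partners 1 of 3 tested rose: Plec, the plectin gene that links Itgb4 to keratin, was at 72.0, 51.7 and 45.7 FPKM in NEC against 27.4, 26.9 and 27.3 FPKM in control (log2 1.0, SE 0.17, adjusted p = 0.00944, limma). Dst and Cd151 did not pass, at -0.24 and 0.03, and Col17a1, the hemidesmosomal collagen, was too low for the test, at 0.0523, 0.065 and 0.0396 FPKM in NEC against 0.283, 0.223 and 0.2 FPKM in control, and without a filter it fell by 0.23 (adjusted p = 0.0216). In that fit the median change of all genes was -0.11, and 15.3% of them fell. The NEC values of Col17a1 were near that of 1 fragment in a transcript of 1 kb, 0.0536 to 0.0657 FPKM. Its direction is therefore not set against that of Plec, which moved in the same direction as Itgb4.

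Of 15 tested basement membrane partners 11 fell and 4 did not pass, with a median log2 change of -0.62. Among those 4, Agrn, the agrin gene, was at 33.7, 17.5 and 17.6 FPKM in NEC against 15.4 to 16.5 FPKM in control (log2 0.44, adjusted p = 0.188, limma). Col18a1, a basement membrane collagen, was at 11.9 to 13.1 FPKM in NEC against 9.9 to 10.8 FPKM in control (log2 0.22, adjusted p = 0.0902). Neither overlapped between groups, and Col18a1 was called higher after TMM scaling and after quantile normalization. Nid1 and Nid2, the nidogens that bridge laminin and collagen IV, fell by 0.72 and 1.04. Col4a5 was at 1.80, 2.92 and 4.25 FPKM in NEC against 12.8, 11.7 and 11.5 FPKM in control (log2 -1.75, SE 0.22, adjusted p = 0.00525, limma), and Fras1, which anchors epithelial basement membranes, fell by 1.69. Col4a1 and Col4a2, the chains of the common collagen IV, fell by 0.48 and 0.43, and after TMM scaling their changes of -0.14 and -0.10 did not pass. After TMM scaling 5 of the 15 fell and 1 rose, beside 14.2% and 16.7% of all genes.

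Among other laminin receptors 3 of 6 fell, and after TMM scaling 3 fell and 2 rose, beside 14.2% and 16.7% of all genes. Dag1, the dystroglycan gene, was at 10.1 to 13.6 FPKM in NEC against 8.65 to 9.99 FPKM in control. Its change of 0.26 did not pass (adjusted p = 0.142, limma). It passed after TMM scaling (0.58, adjusted p = 0.0176) and after quantile normalization (0.4, adjusted p = 0.0493). Sdc4 and Sdc2, heparan sulfate proteoglycans, fell by 1.12 and 1.53, and Rpsa, the ribosomal protein gene also known as a laminin receptor, whose processed copies in the genome may share its reads, by 0.79. Sdc1, the epithelial syndecan, changed by 0.31 (adjusted p = 0.0766, limma) and passed after TMM scaling (0.64, adjusted p = 0.0306) and without NEC 3.

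Of 10 tested activators and inhibitors of integrins 3 fell, Tln2, a talin, by 0.66, Fermt2, a kindlin of mesenchyme, by 1.11 and Ccm2, of the cerebral cavernous malformation complex, by 0.49, a count near the share of all genes that fell, and 1 fell after TMM scaling, beside 14.2% of all genes. Tln1, the main talin, changed by -0.37 without passing (adjusted p = 0.1, limma). Of 17 tested focal adhesion adaptors 5 fell and 2 rose, counts near the shares of all genes. Zyx, the zyxin gene, and Tns2 and Tns3, tensins, fell by 0.51, 0.59 and 0.66, and Bcar1, a substrate of the kinase Src, rose by 0.49 on the log2 scale, at 29.0, 24.3 and 21.9 FPKM in NEC against 17.1, 17.8 and 17.1 FPKM in control, without overlap, a call lost without NEC 2 and without any 1 control. After TMM scaling 3 adaptors rose and 1 fell, beside 16.7% and 14.2% of all genes. Of 8 tested ligands that carry the arginine-glycine-aspartate motif 5 fell, with Fbn2 and Fbn1, the fibrillin genes, and Tgfb3 lower by 1.59, 1.23 and 1.21. Of 6 tested ligands of leukocyte integrins 3 fell, Icam2 by 0.70 and Jam3 by 1.25 beside Madcam1.

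Collagen genes, the other large family of matrix genes, had 22 of 27 tested members lower and a median log2 change of -1.32, and claudins, epithelial junction genes, had 2 of 9 lower and a median of -0.34. Of all tested genes 30.6% were lower, with a median of -0.26. After TMM scaling 17 collagens were lower, beside 14.2% of all genes, and without control 1, 2 or 3, 9, 9 and 10 of 26 were. The laminin chains, with 8 of 10 lower and a median of -1.03, and the integrins, with 9 of 19 lower, are listed beside them as values only, and the differences between these families were not tested.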

How the data were processed

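The 6 libraries were made from total RNA with an integrity number above 7 by a TruSeq RNA kit and sequenced from both ends, per the labels' protocols. The submitters' processing notes name HISAT2, SAMtools 1.3.1, Cuffdiff and mouse build mm10. Other versions, the annotation and any strand setting are not given in the sources used here. No unit stands in the deposited table. Its values were taken as the authors' FPKM, which Cuffdiff writes, and low values lie on steps of 1 fragment over transcript length. Columns named N were taken as NEC. GENCODE M21 gave symbols and coordinates for 55141 of 55487 identifiers.

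Groups were compared on log2(FPKM + 1) with limma 3.58.1 (R 4.3.3), using a mean-variance trend, no covariate, genes averaging 1 FPKM or more, and Benjamini-Hochberg adjustment over all of these, in code tested on simulated data. This scale understates the change of low genes. An exact permutation test of 3 libraries against 3 cannot go below p = 0.1 and was not run. Lists are described by counts and medians without a list test. Members and lists were chosen with earlier results of these data known. Every member but 1, which is not reported here, is described, with values per library for called members that reach 2 FPKM in a group and for Itgb4, Itga6 and their partners, and of each partner list up to 4 genes of smallest p are named. Other members given per library, regional, marker and further partner genes, and the ratios within a library were chosen after their values were seen. Alternatives were a pseudocount of 0.1, no filter, a filter at 5 FPKM, unweighted TMM scaling (trims of 30% and 5%), quantile normalization, scaling to the protein-coding genes that are not among the 100 most abundant, a block for replicate number, no trend, and each library left out. Promoter sequences come from RefSeq (GRCm38.p6), with motifs searched on both strands. Matplotlib 3.10.9 (Python 3.11.15) drew the figures.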

Additional observations from a re-analysis of the deposited data

How the results depend on the processing

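Over all genes, 1215 rose and 4829 fell. These counts were 2641 and 2252 after TMM scaling, 2202 and 2387 after quantile normalization, and 1746 fell with the filter at 5 FPKM. With 1 library left out they ranged from 471 to 1566 and from 917 to 5378. Among members 17 fell, against 10 with the filter at 5 FPKM, where fewer were tested, 9 after TMM scaling, and 4 (without control 2) to 21 (without NEC 3) with 1 library left out. Of all tested genes 30.6% fell, against 25.1% with that filter, 14.2% after TMM scaling, 5.9% without control 2 and 33.8% without NEC 3. These shares stand beside the counts of epithelial and mesenchymal members lower in the same settings too. Epithelial members lower numbered 1 after TMM scaling. Their median log2 change of 0.15 was 0.44 after TMM scaling, 0.31 after quantile normalization, and from -0.09 (without NEC 1, turning the sign) to 0.26 with 1 library left out. Mesenchymal members lower numbered 3 of the 4 tested with the filter at 5 FPKM, and from 0 (without control 2, with 7 at an unadjusted p under 0.05, limma) to 8 (without NEC 3) with 1 library left out. Counting Lama5 as epithelial and Itga10, Lama1, Lamb1, Lamb2, Lamc1 and Lamc3 as mesenchymal gave 11 lower and 1 higher mesenchymal members, and ratios of epithelial to mesenchymal sums of 2.37 in NEC and 1.04 in control, against 5.25 and 2.21. Geometric means gave 1.82 in control. No change of a called member turned its sign in any setting. The causes of these differences were not tested.

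Libraries of the same number did not deviate together (correlations of -0.05, -0.01 and -0.07 for numbers 1, 2 and 3). These values showed no pairing by number, but deviations from means of 3 libraries cannot exclude one. With the replicate block 856 genes rose and 3230 fell, or 5.42% and 20.4% of all tested genes. Of the 29 tested members 3 rose and 13 fell.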

Other observations

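Itgav, the alpha subunit shared by several receptors of the arginine-glycine-aspartate motif, took about the same low value in 3 libraries and about the same high value in the other 3, across the groups. It was at 8.74, 8.59 and 18.9 FPKM in NEC 1, 2 and 3 and at 19.1, 8.37 and 17.2 FPKM in control 1, 2 and 3. No value lay between 8.74 and 17.2 FPKM. Its log2 change was -0.30 (SE 0.39, adjusted p = 0.561, limma) on the deposited scale and 0.02 after TMM scaling, and the SE was the largest of the 29 tested members. The labels give nothing that sets NEC 1, NEC 2 and control 2 apart from the others.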
